A study of Mus musculus with 6 samples.

Results

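The genes examined were Id1, Id2 and Id3, which encode inhibitors of DNA binding, and Tcf3, Tcf4 and Tcf12, which encode the E proteins E2A, E2-2 and HEB. All probe sets annotated with 1 of these 6 symbols were taken, which gave 19 of the 45101 probe sets on the array, and 0 probe sets carried a member's symbol together with another. Of the 19, 13 passed the filter on low values (above 5.48, the median of all values, on at least 2 of the 6 arrays) and were tested, and the 6 probe sets of Tcf4 did not. RNA came from 3 populations of CD4 T cells, 2 arrays each, sorted from BALB/c Rag1-/- hosts 125 days after they received WT nTreg cells and 500000 WT iTreg cells that had been induced in culture. The hosts have no T or B cells of their own, so the populations are transferred cells and their descendants. nTreg cells carried the EGFP reporter of Foxp3 without Thy1.1, iTreg cells carried both, and ex-iTreg cells carried Thy1.1 and had lost EGFP. Spleen and mesenteric lymph node cells of 14 mice were pooled, and the labels do not say whether the paired pools of a group held different mice. P-values therefore measure the spread between pools, which may be technical.

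E proteins are basic helix-loop-helix transcription factors that bind DNA as dimers at the E-box, the sequence CANNTG. Id proteins have the helix-loop-helix but no basic region, so a dimer of an Id protein with an E protein cannot bind DNA. In T cells this balance is known for its part in thymocyte selection and in effector and memory differentiation, where Id2 and Id3 are often used at different stages, and loss of Id2 and Id3 is known to disturb regulatory T cells.

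In ex-iTreg minus iTreg arrays Id2 and Id3 carried the largest differences among the 6 genes, in opposite directions. The 250 bases before each start site are therefore shown (RefSeq, GRCm38.p6). Id2 lies at chr12:25096093-25096342 on the minus strand and Id3 at chr4:136143572-136143821 on the plus strand. Capitals mark the E-box CANNTG, the CCAAT box and the TATAA element, each searched on both strands, and no 2 of these matches overlapped.
Id2: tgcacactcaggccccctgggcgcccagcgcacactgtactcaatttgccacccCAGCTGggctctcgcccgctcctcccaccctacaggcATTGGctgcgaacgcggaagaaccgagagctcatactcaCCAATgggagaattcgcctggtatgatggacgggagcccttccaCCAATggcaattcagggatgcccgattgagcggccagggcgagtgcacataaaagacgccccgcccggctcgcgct
Id3: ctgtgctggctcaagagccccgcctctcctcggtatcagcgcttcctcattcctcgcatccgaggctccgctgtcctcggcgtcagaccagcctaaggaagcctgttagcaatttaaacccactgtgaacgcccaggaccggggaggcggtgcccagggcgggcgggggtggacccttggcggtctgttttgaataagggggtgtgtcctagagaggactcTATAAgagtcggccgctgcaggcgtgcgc
Both windows are 62.8% G and C. The Id2 window holds 1 E-box, the letters CAGCTG, and 3 CCAAT boxes, and the Id3 window holds 1 TATAA and neither of the other motifs. Among 32851 windows of the same length before RefSeq start sites, 66.2% hold CANNTG, 33.8% hold CCAAT and 22.8% hold TATAA. The letters GGCGCC, a Smad motif of BMP signalling, occur once in the Id2 window and in 9.6% of all windows. GCGNGGGCG, bound by Egr factors, and TTCNNNGAA, bound by STAT factors, occur in neither window, against 4.7% and 7.0% of all windows. The window of Tcf3 and 2 of the 3 windows of Tcf12 also hold 1 E-box each. Id1 had no match in the promoter table, and Tcf4 was not searched.

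All values are log2 expression as deposited. Each difference carries its limma standard error (±), from n = 2 arrays in a group, and an adjusted p is limma's after Benjamini-Hochberg adjustment over all 23484 tested probe sets. In iTreg minus nTreg, 2 of the 13 tested probe sets were called higher and 4 lower at an adjusted p under 0.05, 6 in all, against 29.1% called among all tested probe sets (14.6% higher and 14.5% lower). In ex-iTreg minus iTreg 3 were higher and 2 lower, against 37.0% (17.7% and 19.3%), and in ex-iTreg minus nTreg 3 were higher and 2 lower, against 36.4% (18.1% and 18.4%). The shares of the last 2 comparisons are near the background. The 6 calls of the first are a larger share than its background of 29.1%. They include every tested probe set of Id2, so they are not separate genes. The members were chosen with earlier results of these data known, so this share is not a test of them. A change of at least 2-fold was found for 4 of the 13 in ex-iTreg minus iTreg, all of Id2 and Id3, against 3.66% of all tested probe sets, and for 0 in the other comparisons, against 2.57% in iTreg minus nTreg and 5.46% in ex-iTreg minus nTreg. The paired pools of both groups did not overlap for 11, 8 and 7 of the 13, against 65.7%, 71.8% and 69.4% of all tested probe sets, so separation of pools alone is common on these arrays. Called in all 3 comparisons were 4 of the 13, namely 2 probe sets of Id2, that of Id3 and 1 of Tcf12, against 8.51%. The median difference over the 13 probe sets was -0.08, 0.01 and 0.09 in these comparisons, and 0.02, 0.00 and 0.03 over all tested probe sets. The comparisons share arrays, so they are not independent of each other.

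**Figure D1:**
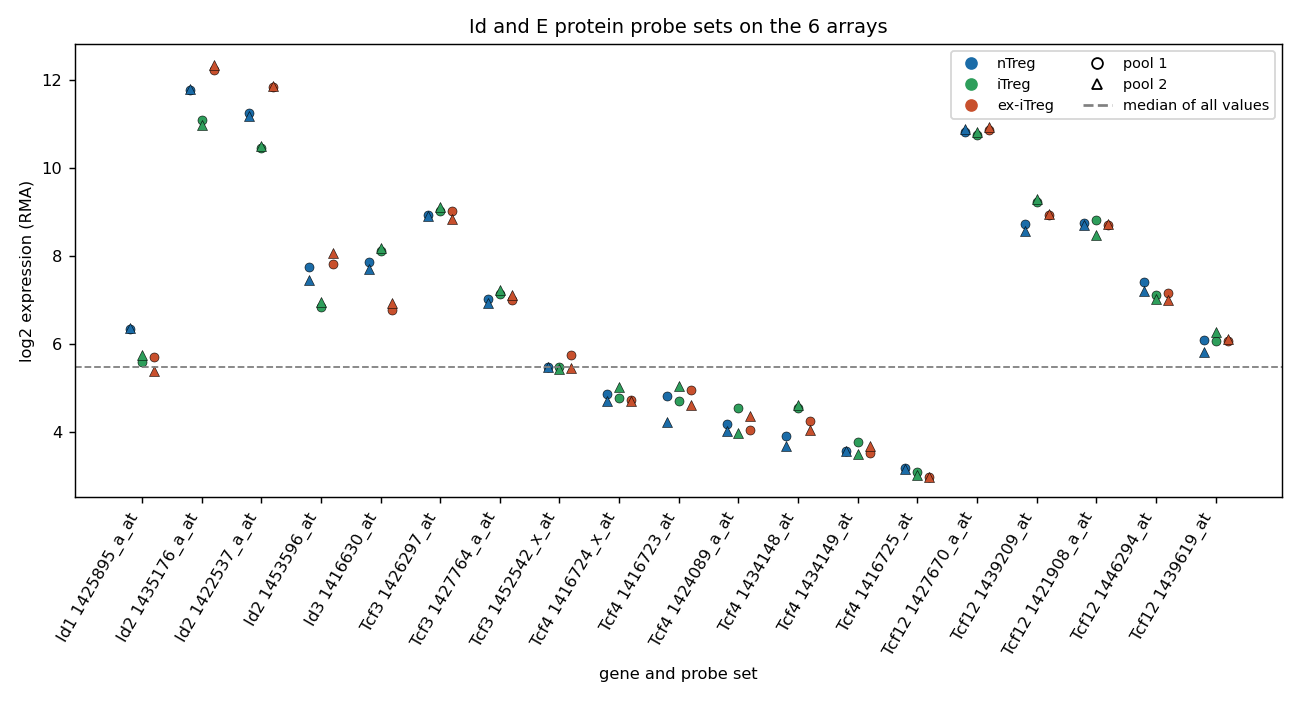
Log2 expression (vertical axis) of all 19 probe sets (horizontal axis) on the 6 arrays, with circles for pool 1, triangles for pool 2, colours for the populations and a dashed line at the median of all values, 5.48. The Id2 probe sets are lowest and the Id3 probe set highest in iTreg arrays, and the 6 Tcf4 probe sets lie under the line.

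Id2 was lowest in iTreg cells, intermediate in nTreg cells and highest in ex-iTreg cells. On its brightest probe set, 1435176_a_at, the nTreg arrays read 11.79 and 11.80, the iTreg arrays 11.11 and 10.99 and the ex-iTreg arrays 12.23 and 12.36. No group overlapped another, and the gaps between groups exceeded the gaps between pools. Id2 fell by 0.75 ± 0.08 in iTreg relative to nTreg arrays (adjusted p = 0.00139, limma). It was 2.37-fold higher in ex-iTreg than in iTreg arrays, a difference of 1.25 ± 0.08 (adjusted p = 0.000139, limma), and higher than in nTreg arrays by 0.50 ± 0.08 (adjusted p = 0.00371, limma). By size, the difference between ex-iTreg and iTreg arrays ranked 248th among 11015 tested genes, with 1 probe set, the brightest, standing for each gene.

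The other Id2 probe sets gave the same order. Probe set 1422537_a_at read 11.25 and 11.20 in nTreg, 10.46 and 10.5 in iTreg and 11.85 and 11.87 in ex-iTreg arrays. The iTreg pools stood at -0.74 ± 0.06 against nTreg (adjusted p = 0.000675, limma), and the ex-iTreg pools at 1.38 ± 0.06 against iTreg and 0.64 ± 0.06 against nTreg (adjusted p = 4.34e-05 and 0.00053, limma). The dimmer probe set 1453596_at read 7.74 and 7.45, then 6.84 and 6.96, then 7.82 and 8.08 in the same order of groups. Its pools lay farther apart, and its difference between ex-iTreg and nTreg arrays, 0.35 ± 0.13, did not pass the test (adjusted p = 0.0796, limma). That difference passed without nTreg pool 1 (adjusted p = 0.0392, limma), after quantile normalization (0.0471) and with an intensity trend (0.0258). Its fall in iTreg relative to nTreg arrays (-0.70 ± 0.13, adjusted p = 0.0106, limma) did not pass without iTreg pool 1 (adjusted p = 0.0564, limma).

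Id3 ran the other way. Its 1 probe set, 1416630_at, read 7.88 and 7.70 in nTreg arrays, 8.12 and 8.18 in iTreg arrays and 6.78 and 6.92 in ex-iTreg arrays. The ex-iTreg pools lay below all 4 arrays of reporter-positive cells, and the iTreg pools lay above the nTreg pools by less than the ex-iTreg pools lay below them. Id3 was 2.46-fold lower in ex-iTreg than in iTreg arrays, at -1.30 ± 0.09 (adjusted p = 0.000187, limma), and 1.92-fold lower than in nTreg arrays, at -0.94 ± 0.09 (adjusted p = 0.000445, limma). Both calls held with any 1 array left out. The rise in iTreg relative to nTreg arrays was smaller, 0.36 ± 0.09 (adjusted p = 0.0258, limma), and it did not pass without nTreg pool 2 (adjusted p = 0.0931, limma), iTreg pool 1 (0.0728) or iTreg pool 2 (0.118), nor with no filter (0.0564). The 95% interval of this difference runs from 0.15 to 0.58.

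**Figure D2:**
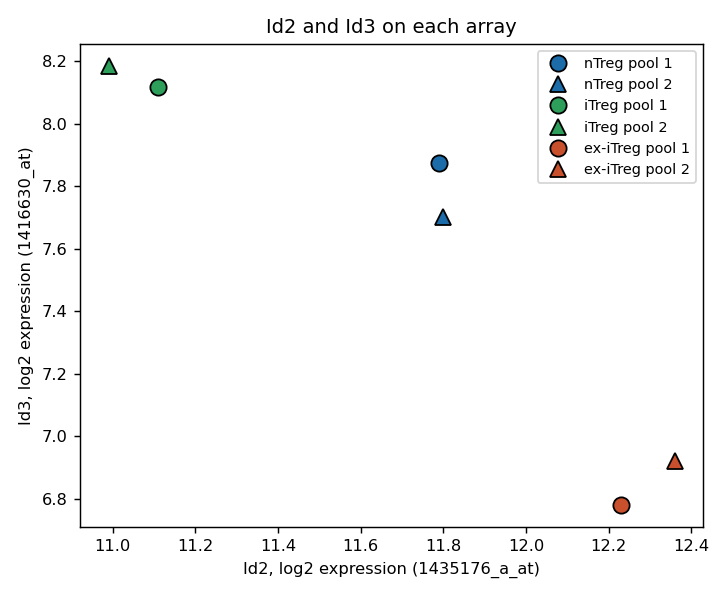
Log2 expression of Id2 (horizontal axis, probe set 1435176_a_at) against Id3 (vertical axis, probe set 1416630_at), 1 point per array, coloured by population and shaped by pool. The iTreg arrays lie at low Id2 and high Id3, the ex-iTreg arrays at high Id2 and low Id3, and the nTreg arrays between them for both genes.

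Because Id2 and Id3 moved in opposite directions, the difference between their log2 values shifted more than either gene. Centred on its mean over the 6 arrays, Id2 minus Id3 was -0.20 and -0.01 in nTreg arrays, -1.12 and -1.31 in iTreg arrays and 1.33 and 1.32 in ex-iTreg arrays. The shift from iTreg to ex-iTreg arrays was 2.54 log2 units, a 5.84-fold change of the ratio. The combination was formed after the values of both genes were known and has no test.

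Among the 11015 tested genes, 86 (0.781%) had the calls of Id2, which were lower in iTreg than in nTreg arrays and higher in ex-iTreg arrays than in both. The reverse calls, those of Id3, were found for 134 genes (1.22%). The genes nearest to each member over the 6 arrays were chosen by the root-mean-square difference after each probe set was centred on its mean. For Id2 these were Trat1, which encodes an adaptor of the T cell receptor complex (0.08 log2 units), Sap30, a subunit of a histone deacetylase complex (0.10), and Rnf125, a ubiquitin ligase (0.10). In ex-iTreg minus iTreg arrays they differed by 1.07, 1.33 and 1.07. In ex-iTreg minus nTreg arrays Trat1 differed by 0.42, a call lost without ex-iTreg pool 2 (adjusted p = 0.0511, limma). The corresponding Rnf125 difference of 0.30 was lost without any one of nTreg pool 1, ex-iTreg pool 1 and ex-iTreg pool 2. For Id3 the nearest genes were D17H6S56E-5 (0.06), Trim59 (0.08) and Gnaq, a G protein alpha subunit (0.08), which fell by 1.40, 1.20 and 1.21 on the log2 scale in ex-iTreg relative to iTreg arrays. In iTreg minus nTreg arrays D17H6S56E-5 differed by 0.40 and Gnaq by 0.31, the latter lost without any array except nTreg pool 1, while Trim59 differed by 0.19 (adjusted p = 0.136, limma).

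**Figure D3:**
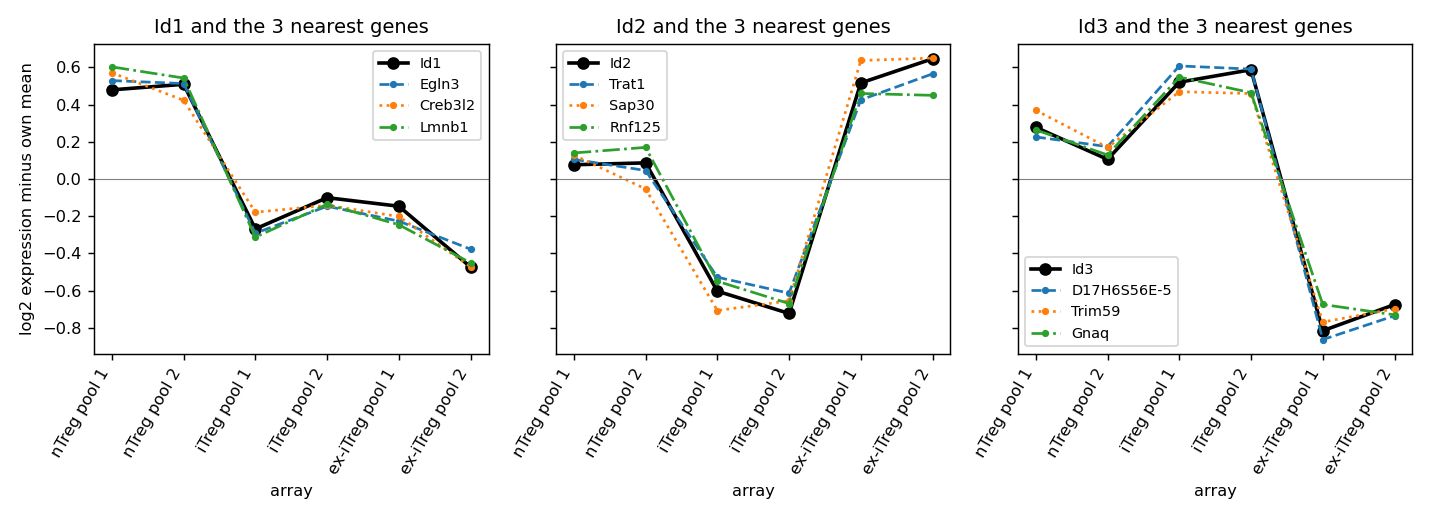
Log2 expression minus each gene's own mean (vertical axis) on the 6 arrays (horizontal axis) for Id1, Id2 and Id3 (black) and, for each, the 3 tested genes with the smallest root-mean-square difference from it. Id1 is highest in nTreg arrays, Id2 is lowest in iTreg arrays and Id3 lowest in ex-iTreg arrays.

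Id1, which is induced by BMP signalling in many cell types, was highest in nTreg cells. Its probe set, 1425895_a_at, read 6.34 and 6.37 in nTreg arrays, 5.59 and 5.76 in iTreg arrays and 5.71 and 5.38 in ex-iTreg arrays. The nTreg pools lay above the other 4 arrays, and the iTreg and ex-iTreg pools overlapped. Id1 fell by 0.68 ± 0.12 in iTreg relative to nTreg arrays and by 0.80 ± 0.12 from nTreg to ex-iTreg arrays (adjusted p = 0.00882 and 0.00294, limma). Between ex-iTreg and iTreg arrays it differed by -0.13 ± 0.12 (adjusted p = 0.453, limma), with a 95% interval from -0.41 to 0.16. The means of 5.67 and 5.55 in iTreg and ex-iTreg arrays stand just above the median of all values, so the size of the differences is not well resolved. Egln3, an oxygen-sensing prolyl hydroxylase, Creb3l2 and Lmnb1, encoding lamin B1, were nearest to Id1 (0.06, 0.07 and 0.07 log2 units).

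On their brightest probe sets, Tcf3 and Tcf12 moved less than Id2 and Id3 in each comparison. Tcf3, whose products E12 and E47 arise by alternative splicing, read 8.93 and 8.92 in nTreg, 9.03 and 9.11 in iTreg and 9.02 and 8.84 in ex-iTreg arrays on its brightest probe set, 1426297_at. The groups differed by at most 0.14 in size, and 0 of 3 Tcf3 probe sets passed the test in any comparison. Probe set 1427764_a_at, at 7.02 and 6.93, then 7.13 and 7.23, then 7.01 and 7.12, came nearest, with 0.21 ± 0.08 in iTreg minus nTreg (adjusted p = 0.0952 and unadjusted p = 0.0363, limma). For 1426297_at the 95% interval ran from -0.06 to 0.34 in iTreg minus nTreg and from -0.19 to 0.20 in ex-iTreg minus nTreg, which leaves differences of that size undetected. The remaining probe set, 1452542_x_at, lay between 5.43 and 5.74, at the median of all values, and its suffix marks a design that can also bind other transcripts.

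Tcf12 gave different answers on different probe sets. Its brightest, 1427670_a_at, read 10.83 and 10.90 in nTreg, 10.76 and 10.82 in iTreg and 10.87 and 10.93 in ex-iTreg arrays, and differed by at most 0.11 (adjusted p from 0.231 to 0.712, limma). By contrast 1439209_at read 8.72 and 8.57, then 9.22 and 9.31, then 8.94 and 8.96, with no overlap between groups. It rose by 0.62 ± 0.08 in iTreg relative to nTreg arrays (adjusted p = 0.0026, limma), and leaving out any 1 array kept this call. It was lower in ex-iTreg than in iTreg arrays, at -0.31 ± 0.08 (adjusted p = 0.0211, limma), and higher than in nTreg arrays, at 0.31 ± 0.08 (adjusted p = 0.0227, limma). The former call was lost without any one of the iTreg or ex-iTreg pools (adjusted p from 0.0516 to 0.105, limma). The latter was lost without nTreg pool 2 (0.0837), ex-iTreg pool 1 (0.0897) or ex-iTreg pool 2 (0.108), and both were lost with no filter (0.053 and 0.0563). The other 3 Tcf12 probe sets, 1421908_a_at, 1446294_at and 1439619_at, did not pass in any comparison; in iTreg minus nTreg they differed by -0.09, -0.23 and 0.22. Which Tcf12 transcripts each probe set reads was not examined, and RefSeq lists 3 start windows for this gene.

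Tcf4, the E protein best known from plasmacytoid dendritic cells and B cells, had no probe set that reached the median of all values on any array. The 6 probe sets ranged from 2.98 to 5.03 over all arrays. On 5 of them no difference passed the test in the fit without a filter, where standard errors reached 0.21. The other, 1434148_at, read 3.90 and 3.68 in nTreg, 4.54 and 4.62 in iTreg and 4.26 and 4.04 in ex-iTreg arrays, and in that fit the iTreg arrays differed from nTreg by 0.79 ± 0.11 and the ex-iTreg arrays from iTreg by -0.43 ± 0.11 (adjusted p = 0.00527 and 0.04, limma). These are readings near background, so they give no level for Tcf4.

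**Figure D4:**
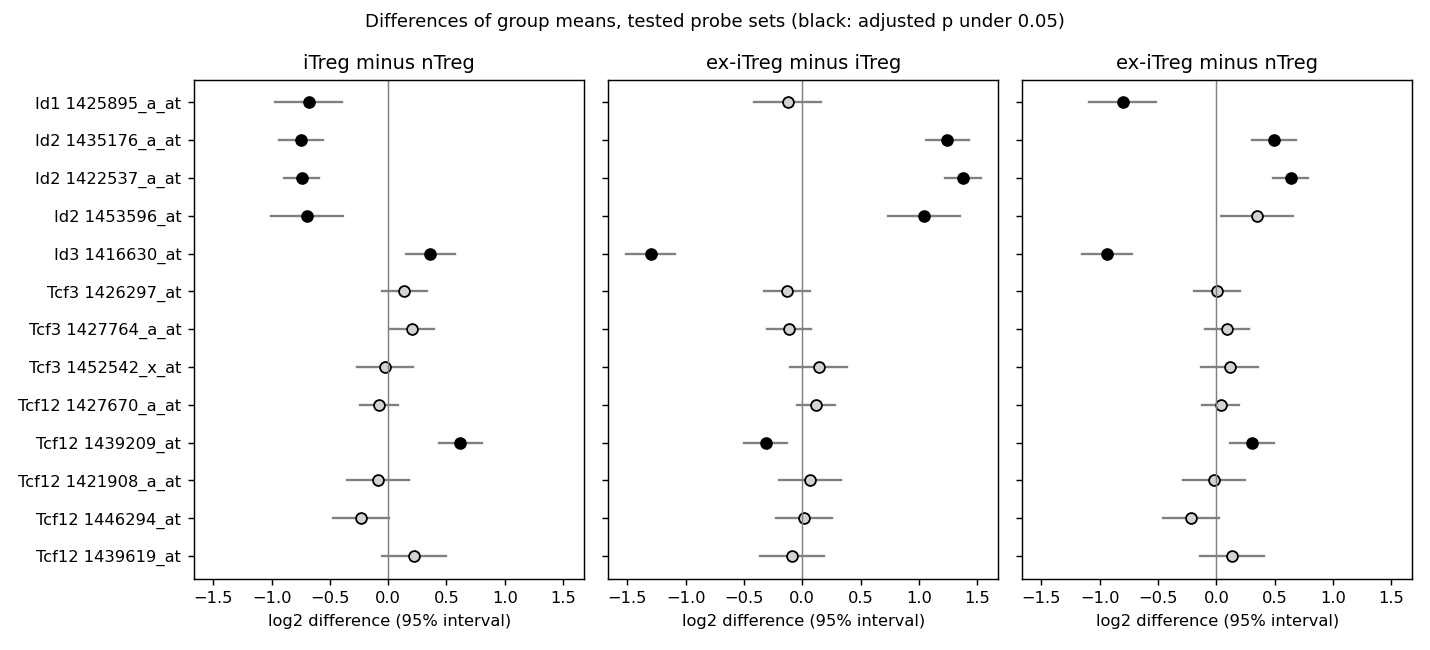
Difference of group means on the log2 scale with its 95% interval (horizontal axis) for the 13 tested probe sets (vertical axis) in each comparison; black points passed limma's test at an adjusted p under 0.05. The 3 Id2 probe sets move together, Id3 moves oppositely, and of the 8 probe sets of Tcf3 and Tcf12 only 1439209_at is called.

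The mean deviation of the 3 Id genes minus that of the 3 E protein genes, each by its brightest probe set (for Tcf4 one below the filter level), was 0.28 and 0.27 in nTreg arrays, -0.09 and -0.19 in iTreg arrays and -0.15 and -0.12 in ex-iTreg arrays. The nTreg pools lay above the rest, and the populations of induced origin overlapped, since Id2 and Id3 offset each other between them. This summary weighs each gene equally, whatever its level, and is given without a test.

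Other helix-loop-helix genes of T cells formed a list of 35 genes, 27 of them tested. In iTreg minus nTreg 5 were higher and 8 lower, in ex-iTreg minus iTreg 4 and 8, and in ex-iTreg minus nTreg 2 and 9; among all genes, 16.4% were higher and 12.7% lower, 15.6% and 21.0%, and 18.4% and 19.0% in these comparisons (29.1%, 36.6% and 37.4% in all). Without ex-iTreg pool 2 the last comparison had 6 calls in place of 11. The list's median was 0.02, -0.08 and -0.05, beside 0.04, -0.02 and 0.03 for all genes. Epas1, which encodes the hypoxia-inducible factor HIF-2alpha, averaged 8.71 in nTreg, 7.39 in iTreg and 9.06 in ex-iTreg arrays. It was lower by 1.32 ± 0.06 in iTreg than in nTreg arrays and higher by 1.67 ± 0.06 in ex-iTreg than in iTreg arrays (adjusted p = 0.000106 and 2.04e-05, limma). Hey1, a Notch-responsive repressor, averaged 9.69, 7.61 and 9.33 and was likewise lowest in iTreg arrays. Bhlhe40, a transcriptional repressor found in activated T cells, was lower in iTreg (-0.67 ± 0.06) and ex-iTreg arrays (-0.54 ± 0.06) than in nTreg arrays (adjusted p = 0.000933 and 0.00103, limma). Ahr, a ligand-activated factor, was lower in both as well (-0.80 ± 0.08 and -0.96 ± 0.08). Max, the partner of Myc, averaged 6.885 in nTreg, 7.841 in iTreg and 6.943 in ex-iTreg arrays. It was higher in iTreg than in nTreg arrays (0.96 ± 0.09) and lower in ex-iTreg than in iTreg arrays (-0.90 ± 0.09). Between ex-iTreg and nTreg arrays it was not called (0.06 ± 0.09, adjusted p = 0.671, limma). Mxi1 and Mxd1, which pair with Max in place of Myc, were lower in ex-iTreg than in nTreg arrays (-1.03 ± 0.07, called on 1 of 2 probe sets, and -0.77 ± 0.07, called on 3 of 3). Id4, Tal1, Tal2, Lyl1, Ascl2, Bhlhe41 and Hes1 did not pass the filter.

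Of 18 tested genes for E and Id protein cofactors and turnover, 7 were higher and 0 lower in iTreg than in nTreg arrays, 1 was higher and 6 lower in ex-iTreg than in iTreg arrays, and 2 were higher and 5 lower in ex-iTreg than in nTreg arrays. The 7 calls in each comparison are 38.9% of the list, against 29.1%, 36.6% and 37.4% of all genes, so the last 2 shares are near the background. The count of 7 in the first comparison fell to between 2 and 3 without any 1 of the 6 arrays; Kat2a and Asb2 stayed, and Cdc20 and Stub1 were lost each time. It was 4 in the second comparison without iTreg pool 2 and 4 in the third without ex-iTreg pool 1. The medians were 0.05, -0.12 and -0.05, beside 0.04, -0.02 and 0.03 over all genes. Lmo4, a LIM-only adaptor, averaged 7.09 in nTreg, 7.43 in iTreg and 9.20 in ex-iTreg arrays, a rise of 1.77 ± 0.09 from iTreg to ex-iTreg arrays (adjusted p = 7.52e-05, limma). Lmo2, a related adaptor that bridges E protein complexes, fell by 0.70 ± 0.07 in the same comparison (adjusted p = 0.000686, limma). Asb2, part of a ubiquitin ligase linked to E2A breakdown, was higher in iTreg than in nTreg arrays by 0.65 ± 0.07 (adjusted p = 0.00157, limma) and fell by 0.75 ± 0.07 from iTreg to ex-iTreg arrays (adjusted p = 0.000599, limma). Kat2a, a histone acetyltransferase, was higher in iTreg than in nTreg arrays by 0.85 ± 0.09 (adjusted p = 0.00147, limma), and its relative Kat2b was lower in ex-iTreg than in nTreg arrays (-0.37 ± 0.07, adjusted p = 0.00623, limma).

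Genes reported as bound or regulated by E proteins in lymphocytes, in either direction, made a list of 33, of which 22 were tested. In iTreg minus nTreg 2 were higher and 9 lower, in ex-iTreg minus iTreg 4 were higher and 8 lower, and in ex-iTreg minus nTreg 7 were higher and 10 lower. These calls are 50.0%, 54.5% and 77.3% of the tested list, against 29.1%, 36.6% and 37.4% of all genes. The list, like the others here, was drawn up with earlier results of these data known, so these shares are not a test of it. The medians were -0.15, -0.15 and -0.11, where all genes had 0.04, -0.02 and 0.03. Ikzf2 also stands on the list of regulatory T cell markers and Ccr9 on that of plasmacytoid dendritic cells. Cxcr5, the follicular homing receptor, was lower in iTreg than in nTreg arrays (-0.28 ± 0.07, adjusted p = 0.0255, limma). Leaving out any 1 array other than nTreg pool 2 ended that call. It was higher in ex-iTreg than in iTreg arrays (0.61 ± 0.07, adjusted p = 0.00113, limma) and than in nTreg arrays (0.33 ± 0.07, adjusted p = 0.01, limma), the latter lost without ex-iTreg pool 2 (adjusted p = 0.067, limma). Foxo1, a regulator of T cell homing and survival, was lower in ex-iTreg than in nTreg arrays (-0.62 ± 0.08, adjusted p = 0.00145, limma) and than in iTreg arrays (-0.37 ± 0.08, adjusted p = 0.0119, limma). The second of these was lost without iTreg pool 1 or ex-iTreg pool 2 (adjusted p up to 0.077, limma). Ccr9, a gut homing receptor, averaged 10.59, 9.13 and 7.58 in nTreg, iTreg and ex-iTreg arrays and was called different in each comparison. Pou2af1, a coactivator of octamer-binding factors, averaged 7.00 in ex-iTreg arrays, against means of 4.54 and 5.01 under the filter level in the others. It is counted above among the genes called higher in ex-iTreg arrays, and only those arrays took it past the filter. Ikzf2, which encodes Helios, differed by -1.22 and then -2.29 at these steps, and Il10, an anti-inflammatory cytokine, by -0.94 and then -2.33. Bcl6, a transcriptional repressor characteristic of follicular helper cells, averaged 8.47 in nTreg, 7.75 in iTreg and 9.28 in ex-iTreg arrays. In iTreg minus nTreg only 1 of its 2 probe sets was called lower. Il7r, the interleukin 7 receptor, was higher in ex-iTreg arrays than in iTreg and nTreg arrays by 0.63 and 0.58 on its brightest probe set. Both of its probe sets were called in the first of these comparisons and 1 of 2 in the second. In iTreg minus nTreg the brightest differed by -0.05 (adjusted p = 0.627, limma), while 1 of the 2 was called lower. Among the thymic and B-lineage targets, Ptcra, Rag1, Rag2, Dntt, Notch3, Ebf1, Cd79a and Spib did not pass the filter. Igll1 passed it, with means of 5.763, 6.218 and 6.360 in nTreg, iTreg and ex-iTreg arrays, not far above the filter level. It was called higher in iTreg and in ex-iTreg than in nTreg arrays (adjusted p = 0.00926 and 0.00202, limma).

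**Figure D5:**
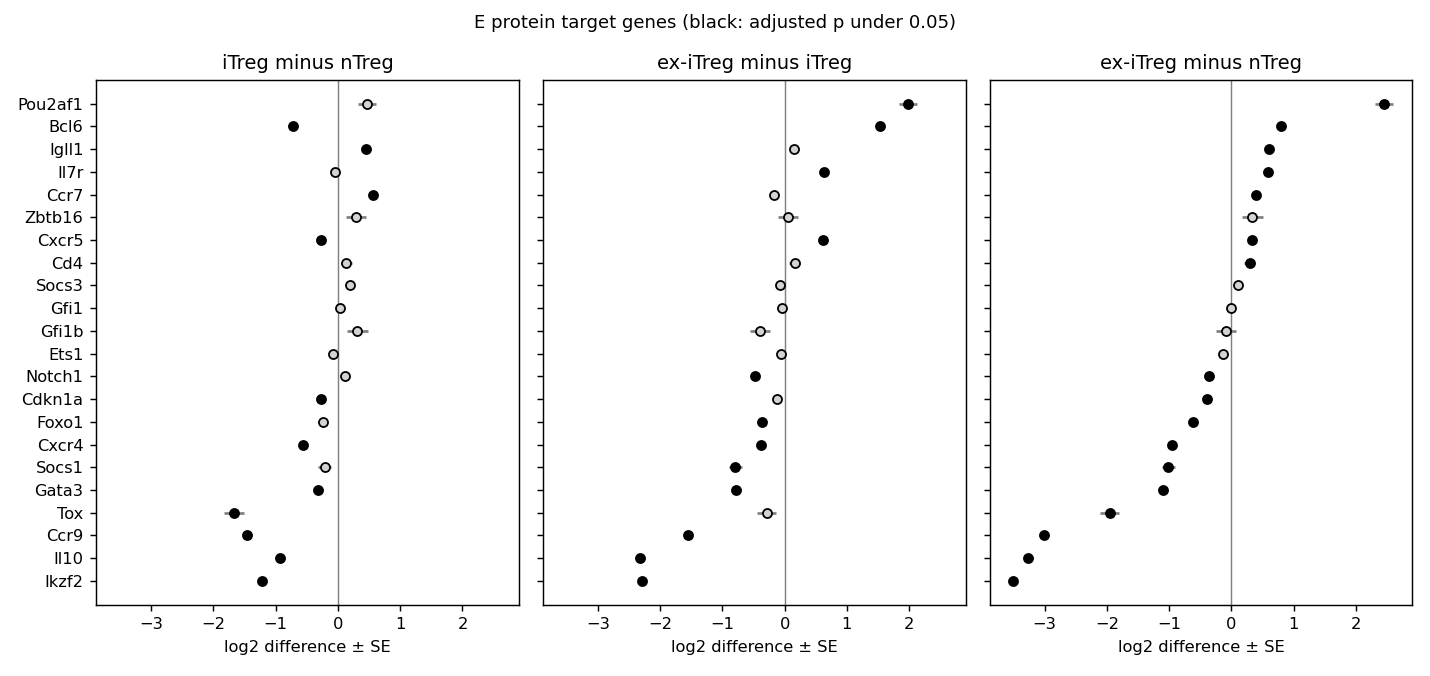
Log2 difference ± SE from limma (horizontal axis) for the 22 tested E protein target genes (vertical axis, ordered by ex-iTreg minus nTreg) in each comparison, n = 2 arrays per group; black points passed at an adjusted p under 0.05. Ikzf2, Il10 and Ccr9 lie farthest to the left in ex-iTreg minus nTreg and Pou2af1 farthest to the right.

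Of 21 tested genes on the BMP, TGF-beta and antigen receptor routes to Id transcription, 4 were higher and 7 lower in iTreg minus nTreg, 7 higher and 6 lower in ex-iTreg minus iTreg, and 6 higher and 7 lower in ex-iTreg minus nTreg. Calls made up 52.4%, 61.9% and 61.9% of this list and 29.1%, 36.6% and 37.4% of all genes. This list was likewise drawn up with earlier results of these data known, so its shares are not a test of it. Its medians were -0.08, 0.02 and 0.09, and those of all genes 0.04, -0.02 and 0.03. The 11 calls of the first comparison fell to between 5 and 7 without any 1 of the 6 arrays. Bmpr2, the type II BMP receptor, averaged 9.37, 8.56 and 8.10 in nTreg, iTreg and ex-iTreg arrays, falling by 0.81 ± 0.07 in iTreg relative to nTreg arrays (adjusted p = 0.000888, limma). Tgfbr1 averaged 11.71, 11.09 and 9.57, with a difference of -1.53 ± 0.07 in ex-iTreg minus iTreg (adjusted p = 3.81e-05, limma). Tgfbr2, its partner receptor, rose by 0.94 ± 0.06 in that comparison (adjusted p = 0.000152, limma). Acvr2a, an activin and BMP receptor, averaged 8.01, 8.58 and 9.35 in nTreg, iTreg and ex-iTreg arrays and was called different in each comparison. Smurf2, a ubiquitin ligase that limits this signalling, rose by 0.81 ± 0.07 in ex-iTreg relative to iTreg arrays (adjusted p = 0.000571, limma), and Skil, a Smad corepressor, fell by 0.53 ± 0.07 in iTreg relative to nTreg arrays (adjusted p = 0.00362, limma).

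Several technical and cellular measures moved with the groups. All 10 annotated T cell markers were above the median of all values on every array. The 1 probe set of Foxp3 read between 3.99 and 4.29 on every array, so the array could not check the sort. The mean of 24 poly-A control probe sets, spiked in before labelling, was 10.9 and 11.0 in nTreg, 12.4 and 12.3 in iTreg and 9.49 and 9.62 in ex-iTreg arrays, the same order of populations as Id3 and the reverse of Id2. The 3' minus 5' signal of the Gapdh control followed that order too, at 0.15 and 0.15, 0.38 and 0.52, and 0.00 and -0.04. Because each population has its own level of these controls, they cannot be told apart from the population. Macrophage and monocyte markers, with 11 of 12 above the median on every array and Itgam on none, summed on the linear scale to 2817 and 2701 in nTreg, 5429 and 5458 in iTreg and 3432 and 3407 in ex-iTreg arrays. Natural killer and CD8 T cell markers, with 3 of 7 above the median on every array and Ncr1 on none, summed to 471 and 439, 445 and 466, and 1118 and 1065. Its members did not move as one. In ex-iTreg minus iTreg Klrd1, Klrk1, Eomes and Cd8a were called higher (3.01, 3.14, 1.81 and 0.33). Prf1 and Cd8b1 were called lower there (-0.28 and -0.75). In ex-iTreg minus nTreg Klrd1, Klrk1, Eomes and Prf1 were called higher (3.91, 3.31, 1.57 and 0.54) and Cd8b1 lower (-1.84). Cd8a differed by 0.00 there (adjusted p = 0.981, limma). Klrk1 averaged 4.50 in nTreg and 4.67 in iTreg arrays, under the filter level, which it passed only through the ex-iTreg arrays. Regulatory T cell markers, with 6 of 7 above the median on every array and Foxp3 on none, summed to 33680 and 34300, 22940 and 22760, and 9582 and 10300. In iTreg minus nTreg Ctla4, Ikzf2, Tnfrsf18 and Nrp1 were called lower. Il2ra and Izumo1r were not called there (-0.08 and 0.03, adjusted p = 0.483 and 0.798, limma). All 6 tested were called lower in ex-iTreg than in iTreg arrays and than in nTreg arrays. Plasmacytoid dendritic cell markers, with 7 of 9 above it on every array and Spib on none, summed to 2916 and 2808, 1873 and 1857, and 1235 and 1211. In iTreg minus nTreg only Ccr9 was called lower among the 8 tested (-1.46), Siglech was called higher (0.42), 6 were not called, and the list's median was 0.00. In ex-iTreg minus nTreg Ccr9, Irf8 and Pacsin1 were called lower, and Bst2, Ly6d, Siglech, Klk1 and Cox6a2 were not called. Conventional dendritic cell markers, with 3 of 8 above it on every array and Zbtb46, Xcr1 and Cd209a on none, summed to 1581 and 1613, 2109 and 2284, and 1478 and 1561. Of the 4 tested, H2-Aa and H2-Ab1 were called higher in iTreg than in nTreg arrays (0.64 and 0.40). They were called lower in ex-iTreg than in iTreg arrays (-0.51 and -0.75), and Batf3 and Flt3 were not called in any comparison. Stromal and endothelial markers, with 6 of 10 above the median on no array, Cdh5 and Tek among them, summed to between 417 and 496. Of 9 B cell markers 6 were above the median on no array, among them Cd79a and Pax5. The sum was 464 and 472 in nTreg, 333 and 317 in iTreg and 226 and 251 in ex-iTreg arrays. Among the 3 tested, Cd79b and Ms4a1 were called lower in iTreg than in nTreg arrays (-1.19 and -1.10). They were also called lower in ex-iTreg than in iTreg arrays (-1.82 and -0.35), and Cd22 was not called in any comparison. Ms4a1 passed the filter only through the nTreg arrays. It averaged 4.612 in iTreg and 4.265 in ex-iTreg arrays, both under the filter level, so that difference is between low readings. Cd79b averaged 4.65 in ex-iTreg arrays, also under that level. The part of other cells or of these controls in the differences of the Id and E protein genes was not tested. In RNA from sorted pools, fewer cells expressing a gene and less RNA per cell cannot be told apart.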

How the data were processed

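Total RNA of 6 sorted T cell pools was measured on Affymetrix mouse expression arrays. The deposited table holds log2 expression for each probe set; per the submitters' processing notes it was summarised by RMA, whose software and version were not given in the sources used here. Values were used as deposited, so background and saturation of single probes could not be examined. Array medians lay between 5.47 and 5.49.

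Symbols came from the platform annotation, 1 symbol for 34945 of 45037 non-control probe sets, several for 932 and none for 9160, and 34741 matched a RefSeq gene by Entrez identifier. Promoter windows came from RefSeq (GRCm38.p6) for 4 of the 6 genes; the files name no build.

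With lmFit and eBayes of limma 3.58.1 (R 4.3.3), 1 mean per group was fitted over all 6 arrays, with 3 residual and 3.37 prior degrees of freedom, to the 23484 non-control probe sets above 5.48 on at least 2 arrays; adjusted p-values use Benjamini-Hochberg. The test was tried on simulated data. With 2 arrays a group, the smallest two-sided p of an exact permutation test is 0.33. The number of arrays limits the precision.

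Members and gene lists were chosen with earlier results of these data known. Genes were named by rule: every member probe set, up to 4 called genes per list and comparison by t statistic plus Il7r, Cxcr5, Foxo1 and Bhlhe40, and the 3 genes nearest to each called member; a few others are given as counts or levels. Marker lists covered T, Treg, B, plasmacytoid and conventional dendritic, macrophage, natural killer and CD8, and stromal cells. Alternatives were quantile normalization, median centring, other filters, an intensity trend, robust eBayes, only the 2 groups compared, a replicate block, another probe set summary, and each array left out, where the remaining array of that group was assumed to vary like the other groups.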

Additional observations from a re-analysis of the deposited data

How the results depend on the processing

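The direction of every called member difference held under every alternative run. Over the 13 tested member probe sets and 3 comparisons, 3 of 312 values from the other alternatives lost the call and 2 gained it, and 11 of 228 values with 1 array left out lost it and 1 gained it; those calls are named beside each gene. Pool numbers are shared between groups, and deviations of same-numbered pools correlated at -0.01, -0.09 and -0.04. These correlations run over all tested probe sets and are small. An effect of the number shared by a part of the genes was not tested. The correlations cannot tell whether same-numbered pools came from the same mice. With the replicate block, 5853, 8011 and 7814 probe sets were called in iTreg minus nTreg, ex-iTreg minus iTreg and ex-iTreg minus nTreg in place of 6826, 8694 and 8558. The block changed no member call, and it left 2 calls among cofactor and turnover genes in iTreg minus nTreg. That count was also 2 with no filter and 2 in the fit of only the groups compared, where the signalling list had 7 calls under each in place of 11. Leaving out 1 array gave from 3399 to 5433 called probe sets in iTreg minus nTreg, from 4895 to 9112 in ex-iTreg minus iTreg and from 5168 to 7929 in ex-iTreg minus nTreg. The first count moved by more than 1.5 times without iTreg pool 1 (3987) or iTreg pool 2 (3399), the second without iTreg pool 2 (5687), ex-iTreg pool 1 (5189) or ex-iTreg pool 2 (4895), and the last without ex-iTreg pool 1 (5168) or ex-iTreg pool 2 (5237). Cofactor and turnover calls then ran from 2 to 3, from 4 to 8 and from 4 to 7, signalling calls in iTreg minus nTreg from 5 to 7, and calls among other helix-loop-helix genes in ex-iTreg minus nTreg from 6 to 9. The Id minus E protein summary in ex-iTreg minus nTreg was -0.41, and -0.48 over all tested probe sets. The cause of these shifts was not tested. Signals at or under the median of all values, those of Tcf4 and nearly those of Id1, limit what can be said of these genes.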
